A study of Mus musculus with 2 samples.

Results

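The 34 genes of glycolysis and the pyruvate dehydrogenase switch are described here in mouse subcutaneous fat. They cover every enzymatic step from glucose phosphorylation to pyruvate, the fructose 2,6-bisphosphate enzymes, lactate dehydrogenase, and the catalytic core of the pyruvate dehydrogenase complex with its kinases and phosphatases. The members were chosen by gene symbol and not by a cut on their levels, though earlier results of these data were known. All 34 were found among 43346 annotated genes. The study is a reference transcriptome with no treated group. It holds 2 RNA-seq libraries, replicate 1 and replicate 2, made from subcutaneous fat pads of wild-type C57BL/6J mice aged 8 weeks. Each library pooled male and female littermates, and the 2 biosamples share 1 donor record, and no source used here says whether their animals were separate. The libraries are stranded and paired-end, from rRNA-depleted polyadenylated RNA of more than 200 nucleotides.

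Glycolysis splits glucose into pyruvate in the cytosol, with control concentrated at hexokinase, phosphofructokinase and pyruvate kinase. Pyruvate is then reduced to lactate by lactate dehydrogenase or oxidised to acetyl-CoA in mitochondria by the pyruvate dehydrogenase complex, which kinases switch off and phosphatases switch on. In fat cells the pathway supplies glycerol 3-phosphate for triglyceride storage and acetyl-CoA for fatty acid synthesis, and insulin promotes it.

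The 2 libraries were of similar depth, with 54752739 estimated counts in replicate 1 and 58687668 in replicate 2, but they differed in makeup. Mitochondrial transcripts took 6.58% of TPM in replicate 1 and 15.8% in replicate 2, and 14762 and 13076 genes reached a TPM of 1. TPM rescaled over nuclear protein-coding genes was used for mean levels and for the count of members at a TPM of 1 or more. That count stayed at 31 in both libraries. No ratio between the libraries was taken from rescaled TPM. The part of the mitochondrial difference in TPM ratios between the libraries was thus not tested. Cell type markers differed too. Of 10 adipocyte markers, 10 had levels over 2-fold higher in replicate 2, and their summed level was 7751 TPM (transcript abundance relative to length and to the whole library) in replicate 1 and 27528 in replicate 2. Smooth muscle markers (6 of 6), epithelial markers (7 of 7) and markers of dividing cells (5 of 5) were over 2-fold higher in replicate 1. Their summed levels were 5869 and 655 TPM, 699 and 13.7 TPM, and 59.1 and 8.42 TPM in replicates 1 and 2. None of 7 macrophage markers was over 2-fold apart, at 1201 and 871 TPM in sum. Of 6 neutrophil markers 2 were tested, Retnlg (106 and 2.74 TPM) and Csf3r (13.1 and 2.46 TPM), and both were over 2-fold higher in replicate 1. The others had too few counts for a call. They were S100a8 (38 and 35 counts, a ratio of 1.23), S100a9 (28 and 6), Mpo (54 and 7) and Camp (8 and 3). The labelled tissue was borne out by adipocyte markers in both libraries, and epithelial keratins such as Krt8 (169 and 1.87 TPM) marked replicate 1. The part of these cell types in the differences below was not tested. In bulk tissue, fewer cells of a type and less RNA per cell cannot be told apart.

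In sum the 34 genes took 0.985% of all TPM in replicate 1 and 1.19% in replicate 2. Of the 34 genes, 31 had a TPM of 1 or more in each library, against 55.5% of protein-coding genes. The exceptions were the minor isozymes Aldoc, Pgam2 and Pklr. Gapdh stood first at 3423 TPM in replicate 1 and 3233 in replicate 2 (mean 3328 ± 135, SD, n = 2). Aldoa followed at 1899.8 and 3446 TPM (2673 ± 1093), so that the order of these 2 genes turned between the libraries. Ldha (958 ± 201), Eno1 (705 ± 228), Tpi1 (668 ± 176) and Pkm (661 ± 163) came next. The last 3 of these lay within each other's spread. The 3 leading genes alone held 62.3% and 65.2% of the members' TPM.

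**Figure D1:**
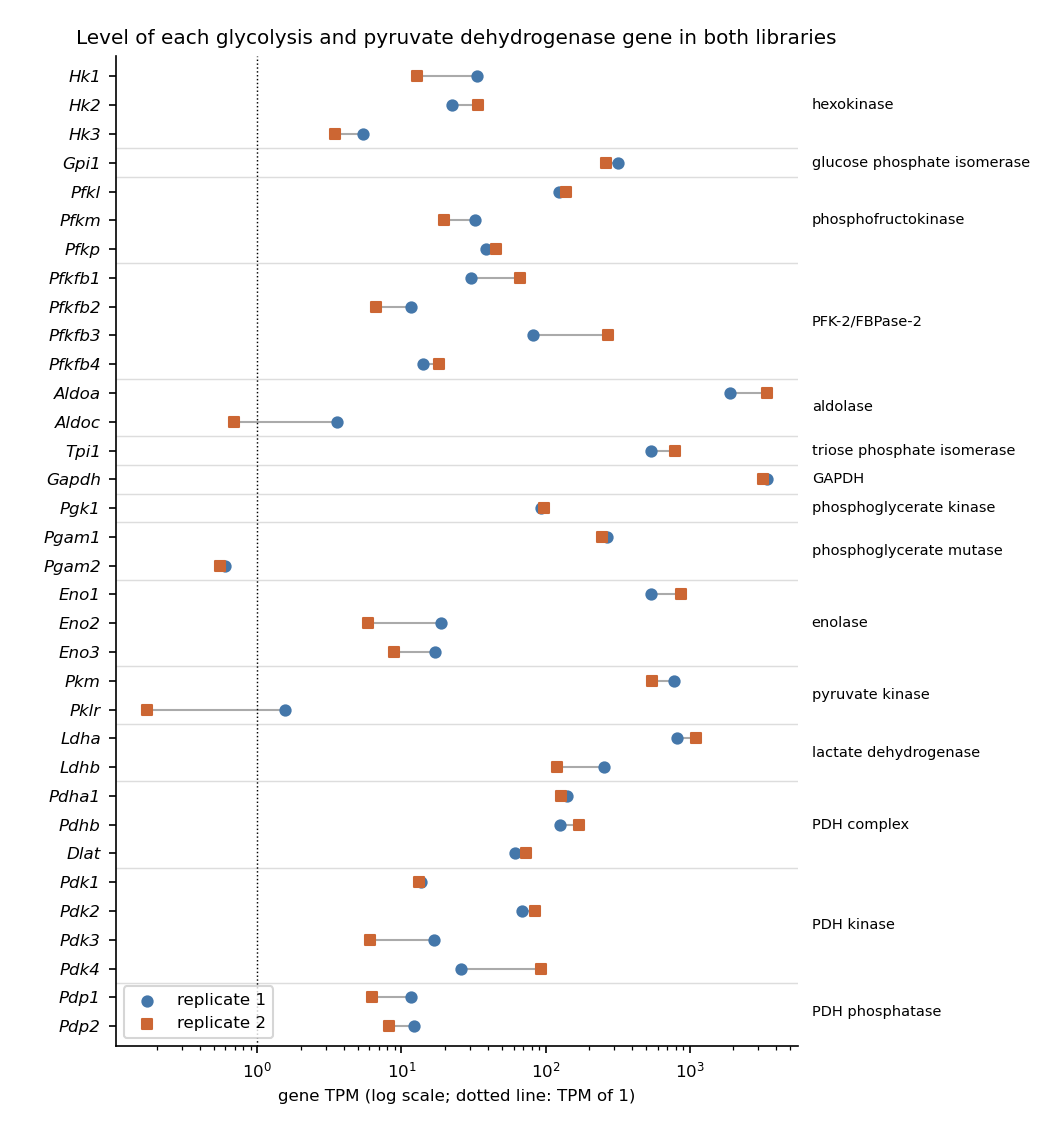
Level of each gene (TPM, log scale) in replicate 1 (circles) and replicate 2 (squares), grouped by enzymatic step, with a dotted line at a TPM of 1. Gapdh and Aldoa lead in both libraries, and Aldoc, Pgam2 and Pklr fall under the line in at least 1 library.

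Summed by step, the levels spanned a wide range. The lower steps from aldolase to lactate dehydrogenase stood mostly above the upper ones, with aldolase at 1903 and 3446 TPM and lactate dehydrogenase at 1068 and 1220 TPM. By gene TPM, hexokinase was lowest among the steps of glycolysis itself, at 61.4 TPM in replicate 1 and 50.5 in replicate 2. Phosphofructokinase reached 195 and 203 TPM. Phosphoglycerate kinase, with 93.6 and 97.8 TPM, was the lowest of the lower steps. Over full-length coding transcripts phosphoglycerate kinase, at 46.6 and 38.7 TPM, lay under hexokinase, at 52.1 and 39.7 TPM.

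To compare the libraries, counts were scaled by the trimmed mean of M-values (TMM), and each ratio is replicate 2 over replicate 1 with a 95% interval. The intervals cover counting error only, and with 1 library on each side the ratios have no replicate check. A call of over 2-fold required an interval wholly above 2 or below 0.5 and a scaled count averaging 100 or more. Of 31 members tested, 10 were called, against 23.1% of 13403 genes tested. Of these, 9 were higher in replicate 2 (background 10.6%) and 1 in replicate 1 (background 12.5%). The 9 were Hk2, Pfkfb1, Pfkfb3, Aldoa, Tpi1, Eno1, Ldha, Pdhb and Pdk4, and the 1 was Eno2. The median log2 ratio was 0.57 over the 33 members whose scaled counts averaged 10 or more, of which 24 were above 0. Over all 17167 such genes the median was -0.0018 and 49.8% were above 0. Scaling by total count or by spike-in total lowered every log2 ratio by a constant, 0.51 or 0.46. The median of the members then stood at 0.06 or 0.12, and that of all 17167 genes at -0.516 or -0.458. With total-count scaling 4 members were called in replicate 2 (background 4.4%) and 4 in replicate 1 (background 22.3%), 8 in all (background 26.7%). With spike-in scaling 5 were called in replicate 2 (background 4.88%) and 4 in replicate 1 (background 20.9%), 9 in all (background 25.8%). Median-ratio size factors gave the same counts as TMM, 10 in all (background 23.2%). The balance of directions thus rested on the scaling, among the members as among all genes. Called under TMM, median-ratio, total-count and spike-in scaling alike were Pfkfb1, Pfkfb3, Eno1 and Pdk4 in replicate 2 and Eno2 in replicate 1.

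**Figure D2:**
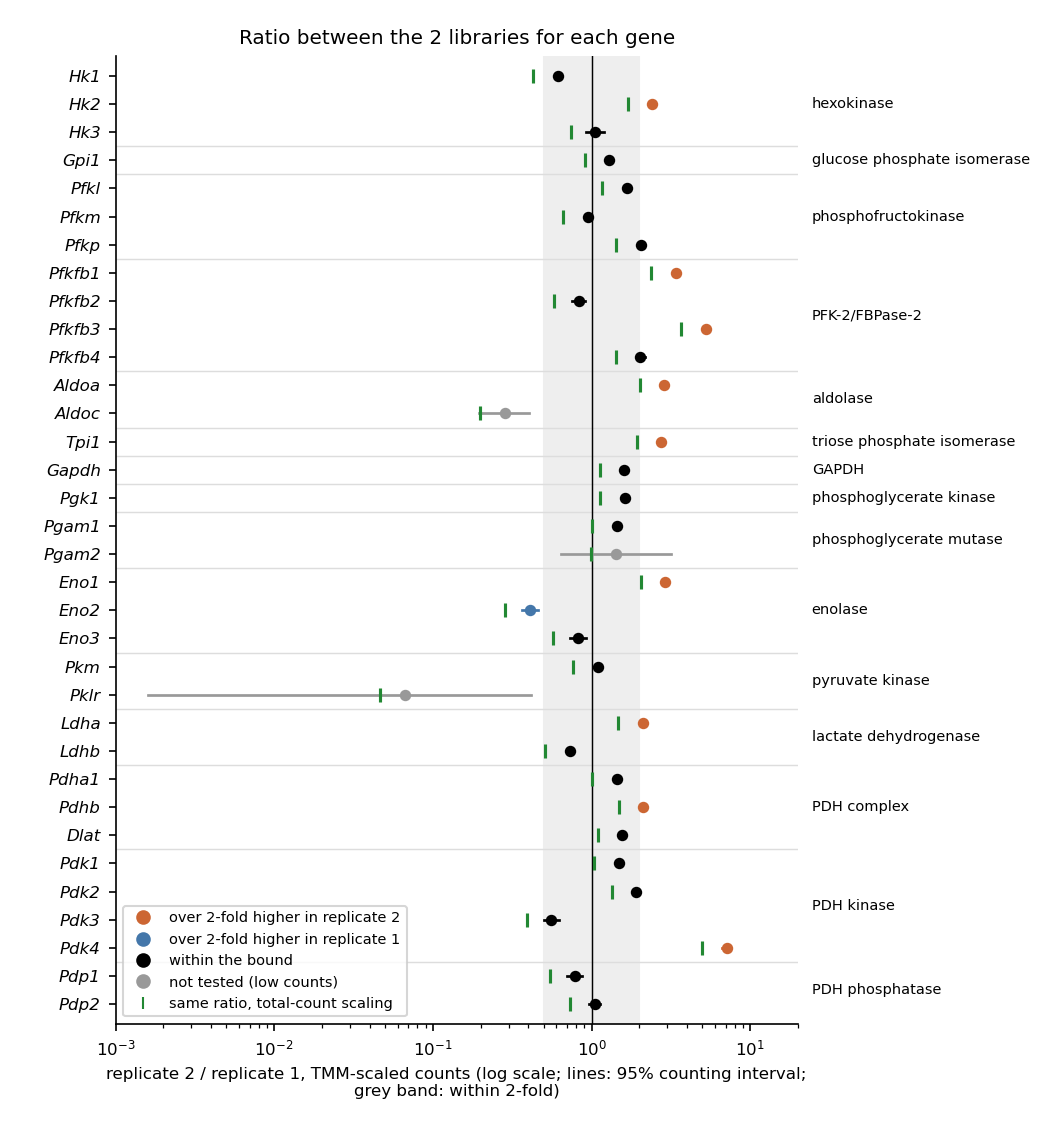
Ratio of replicate 2 to replicate 1 for each gene (log scale), with 95% counting intervals, the 2-fold band in grey and total-count scaling as green ticks. Pdk4 (7.09) and Pfkfb3 (5.25) lie farthest to the right, and Eno2 (0.408) is the called gene to the left.

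The leading hexokinase differed between the libraries. Hk1, the broadly expressed isozyme bound to mitochondria, had 4981 counts (33.3 TPM) in replicate 1 and 2285 (12.9 TPM) in replicate 2, a ratio of 0.611 (0.581 to 0.642). Hk2, the isozyme of insulin-responsive fat and muscle, had 3403 counts (22.6 TPM) and 6187 (34.2 TPM), a ratio of 2.42 (2.32 to 2.53). Hk2 was thus the higher of the 2 in replicate 2 and the lower in replicate 1. Its share of the step was 36.8% in replicate 1 and 67.6% in replicate 2, while that of Hk1 was 54.3% and 25.6%. The ratio of Hk1 to Hk2 counts was 3.96-fold lower in replicate 2 (3.71 to 4.23), a value that no scaling between libraries can change. Total-count scaling put Hk2 at 1.69, within the bound, and Hk1 at 0.428, past it. Hk3, a hexokinase of white blood cells, had 5.45 and 3.45 TPM, and the part of the neutrophil markers in that level was not tested.

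Gpi1, which turns glucose 6-phosphate into fructose 6-phosphate, had 318 TPM in replicate 1 and 261 in replicate 2. Its TMM ratio was 1.29 (1.27 to 1.32), but 0.903 with total-count scaling and 0.9402 with spike-in scaling, so its direction depended on the scaling.

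Pfkl, the phosphofructokinase named for liver, led its step in both libraries with 123 and 138 TPM, or 63.4% and 67.9% of the step. Pfkp, named for platelets, had 38.7 and 45.3 TPM, and its ratio of 2.05 (1.96 to 2.14) was just short of a call. Over its full-length coding transcripts the ratio was 2.51, which is a call. Pfkm, named for muscle, had 32.6 and 19.8 TPM, a ratio of 0.9499 (0.9003 to 1.002), and its share was 16.7% and 9.78%. By gene TPM Pfkm was thus the lowest of the 3 in both libraries. Over full-length coding transcripts Pfkm (32.6 and 19.8 TPM) lay above Pfkp (13.4 and 21.6 TPM) in replicate 1 and below it in replicate 2. Counts of Pfkl to Pfkm were 1.75-fold higher in replicate 2 (1.65 to 1.86). Skeletal muscle markers, whose summed level was 250 TPM in replicate 1 and 141 in replicate 2, included Myh4 at 0 counts in both libraries. Of 11 such markers 3 were tested, with Tnni2 over 2-fold higher in replicate 1, Myl1 over 2-fold higher in replicate 2 and Acta1 (203 and 115 TPM) within the bound. Their part in the level of Pfkm was not tested.

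The fructose 2,6-bisphosphate enzymes, which make and break the strongest activator of phosphofructokinase, formed the step with the largest ratio, 4.43 (4.35 to 4.50). Their summed level was 139 TPM in replicate 1 and 362 in replicate 2. Pfkfb3, the isozyme with the highest kinase activity over phosphatase activity, accounted for most of it. It had 12401 counts (82.5 TPM) in replicate 1 and 48924 (270.4 TPM) in replicate 2, a ratio of 5.25 (5.15 to 5.36). Pfkfb1, the isozyme known from liver and muscle, had 1662 counts (30.3 TPM) and 4249 (66.8 TPM), a ratio of 3.40 (3.22 to 3.61). Both kept the call under total-count scaling, at 3.68 and 2.38. Pfkfb4, an isozyme known from testis, had 14.1 and 18.3 TPM, with a ratio of 2.03 (1.91 to 2.16) that straddled the bound. Pfkfb2, known from heart, went the other way at 11.7 and 6.64 TPM, a ratio of 0.828 (0.757 to 0.905). That direction did not hold for its full-length coding transcripts, which had a ratio of 1.20 (1.018 to 1.41). The share of Pfkfb3 in the step was 59.5% in replicate 1 and 74.7% in replicate 2, and that of Pfkfb2 8.41% and 1.83%.

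Pfkfb1 also differed in where its transcripts began. Pfkfb1-201 starts at X:150589921 in GRCm38 and Pfkfb1-202 at X:150594478, 4557 bases downstream on the plus strand. Each has 14 exons in the GENCODE M21 annotation, of which 13 are shared, so that they differ in the first exon. Pfkfb1-201 held 66.1% of the gene's TPM in replicate 1 and 81.7% in replicate 2, and Pfkfb1-202 held 21% and 6.58%. The estimated counts were 1149 and 3660 for Pfkfb1-201 and 397 and 321 for Pfkfb1-202. Their ratio was 3.94-fold higher in replicate 2 (3.34 to 4.65). The 250 bases before each start are shown because the 2 starts were used unequally, in RefSeq's promoter table for GRCm38.p6 (chrX:150589666-150589915 and chrX:150594178-150594427, plus strand). Neither holds ACGTG on either strand, so nothing is in capitals.
Pfkfb1-201 upstream: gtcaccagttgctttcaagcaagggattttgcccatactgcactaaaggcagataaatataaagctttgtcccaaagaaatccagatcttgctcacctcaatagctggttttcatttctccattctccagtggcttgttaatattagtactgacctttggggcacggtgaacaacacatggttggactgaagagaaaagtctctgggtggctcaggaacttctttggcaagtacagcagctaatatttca
Pfkfb1-202 upstream: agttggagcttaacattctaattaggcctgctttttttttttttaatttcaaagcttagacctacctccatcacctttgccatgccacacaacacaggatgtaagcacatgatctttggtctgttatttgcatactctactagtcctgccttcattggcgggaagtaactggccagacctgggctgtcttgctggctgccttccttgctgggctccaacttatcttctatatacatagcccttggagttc
The table's starts lie 5 and 50 bases from those of the annotated transcripts.

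For Pfkfb3 the 3 leading transcripts kept their proportions. Pfkfb3-206 held 51.0% and 54.0%, Pfkfb3-214 24.5% and 25.7%, and Pfkfb3-220 11.6% and 10.04%. The count ratio of the first to the second changed by 1.01 (0.965 to 1.06). The difference in Pfkfb3 between the libraries was thus spread over its transcripts rather than carried by 1 of them.

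Aldolase A (Aldoa), which splits fructose 1,6-bisphosphate, had 83276 counts in replicate 1 and 179239 in replicate 2, a ratio of 2.87 (2.84 to 2.89). With total-count scaling the ratio was 2.01 and the call was lost. Aldoc, the brain isozyme, had 178 and 38 counts and fell just under the count needed for a call, with a ratio of 0.284 (0.195 to 0.405). It made up 0.19% of the step in replicate 1 and 0.02% in replicate 2. Tpi1, which interconverts the triose phosphates, had 22842 and 47308 counts (543 and 793 TPM). Its ratio of 2.76 (2.71 to 2.80) came to 1.93 with total-count scaling and 2.01 with spike-in scaling, and the call was lost under both.

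Gapdh, the NAD-linked dehydrogenase often used as a reference gene, is a case where the measure sets the direction. It had 108025 counts in replicate 1 and 130758 in replicate 2. The TMM ratio was 1.61 (1.60 to 1.62) and the total-count ratio 1.13, while the ratio of TPM was 0.944. Pgk1, the first ATP-yielding enzyme, had 93.6 and 97.8 TPM and a TMM ratio of 1.62 (1.57 to 1.68). Pgam1, the general phosphoglycerate mutase, had 265 and 245 TPM and a TMM ratio of 1.44 (1.41 to 1.47), against 1.01 with total-count scaling and 0.924 for TPM. Pgam2, the muscle form, had 14 and 15 counts (0.60 and 0.55 TPM). Pgk2, a testis form of phosphoglycerate kinase, had 0 counts in both libraries, which allows up to 3 counts in either.

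Enolase showed opposite calls within 1 step. Eno1, the general isozyme, had 30717 counts (544 TPM) in replicate 1 and 67187 (866 TPM) in replicate 2, a ratio of 2.91 (2.87 to 2.95). Eno2, the neuronal isozyme, had 1287 counts (18.9 TPM) and 394 (5.83 TPM), a ratio of 0.408 (0.363 to 0.457), or 2.45-fold higher in replicate 1. Eno3, the muscle isozyme, had 17.2 and 8.91 TPM with a ratio of 0.821 (0.727 to 0.927). Counts of Eno1 to Eno2 were 7.14-fold higher in replicate 2 (6.37 to 8.03). Most Eno2 TPM lay in transcripts other than full-length coding ones, led in replicate 1 by the retained-intron transcript Eno2-203 (34.5%). Over full-length coding transcripts Eno2 had 4.71 and 1.51 TPM and a ratio of 0.523 (0.436 to 0.625), which is not a call. None of 7 nerve markers was over 2-fold higher in replicate 1, where Eno2 was higher, and their summed levels were 23.6 and 37.8 TPM. Snap25, a neuronal marker, had 0 and 7 counts. The part of nerve in the level of Eno2 was not tested.

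Pyruvate kinase came almost wholly from Pkm, with 776.6 TPM in replicate 1 and 546 in replicate 2. Its TMM ratio was 1.10 (1.08 to 1.11), and total-count and spike-in scaling turned the direction, at 0.768 and 0.800. Pklr, the liver and red cell gene, had 20 counts and 1 count, a ratio of 0.0666 with a wide interval (0.00161 to 0.416). Red cell globins were abundant in both libraries, with red cell markers at 2914 and 3921 TPM in sum.

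Pkm makes PKM1 or PKM2 by including 1 of 2 mutually exclusive exons. PKM1 is the constantly active form of muscle and brain, and PKM2 the form that fructose 1,6-bisphosphate activates. Both exons are coding and 167 bases long, and 372 bases lie between them on the plus strand of chromosome 9 in GRCm38. The upstream exon, at chr9:59675029-59675195, is in Pkm-202 (PKM1), and the downstream exon, at chr9:59675568-59675734, is in Pkm-201 (PKM2). They are shown because reads over this exon tell the 2 forms apart, and were read from the GENCODE M21 transcripts. Capitals mark the 64 positions at which they differ, leaving 103 identical (61.7%).
PKM1 exon: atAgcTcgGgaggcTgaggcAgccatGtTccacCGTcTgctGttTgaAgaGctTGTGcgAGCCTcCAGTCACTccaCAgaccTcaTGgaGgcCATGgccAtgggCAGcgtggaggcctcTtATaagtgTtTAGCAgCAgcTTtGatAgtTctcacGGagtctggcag
PKM2 exon: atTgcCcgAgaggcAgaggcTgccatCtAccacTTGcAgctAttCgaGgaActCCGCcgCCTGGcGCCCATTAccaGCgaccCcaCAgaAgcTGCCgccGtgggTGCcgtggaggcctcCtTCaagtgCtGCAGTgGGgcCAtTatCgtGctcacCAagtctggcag
The PKM2 transcript had 53509 estimated counts (642 TPM) in replicate 1 and 39155 (401 TPM) in replicate 2. The PKM1 transcript had 11260 (135 TPM) and 14220 (145 TPM). PKM2 was the higher form in both libraries, with 82.6% and 73.4% of Pkm, and PKM1 held 17.4% and 26.6%. The count ratio of PKM2 to PKM1 was 1.73-fold lower in replicate 2 (1.68 to 1.77). The share of PKM1 was higher in replicate 2, where the adipocyte markers were higher and the smooth muscle markers lower, while the 3 tested skeletal muscle markers differed in direction. Which cells carried either form was not tested.

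Lactate dehydrogenase was mostly Ldha, the subunit of tissues that make lactate. Ldha had 42018 counts (816 TPM) in replicate 1 and 66345 (1099.7 TPM) in replicate 2, a ratio of 2.10 (2.08 to 2.13), just past the bound. Ldhb, the heart subunit, had 10324 counts (253 TPM) and 5664 (120.3 TPM), a ratio of 0.731 (0.707 to 0.755). The 2 genes thus lay on either side of 1, also with total-count scaling (1.47 and 0.511). The share of Ldha was 76.3% in replicate 1 and 90.1% in replicate 2. TPM of Ldha stood 3.23-fold above Ldhb in replicate 1 (3.16 to 3.30) and 9.14-fold in replicate 2 (8.90 to 9.39). Ldhc, the testis subunit, had 1 count in each library.

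**Figure D3:**
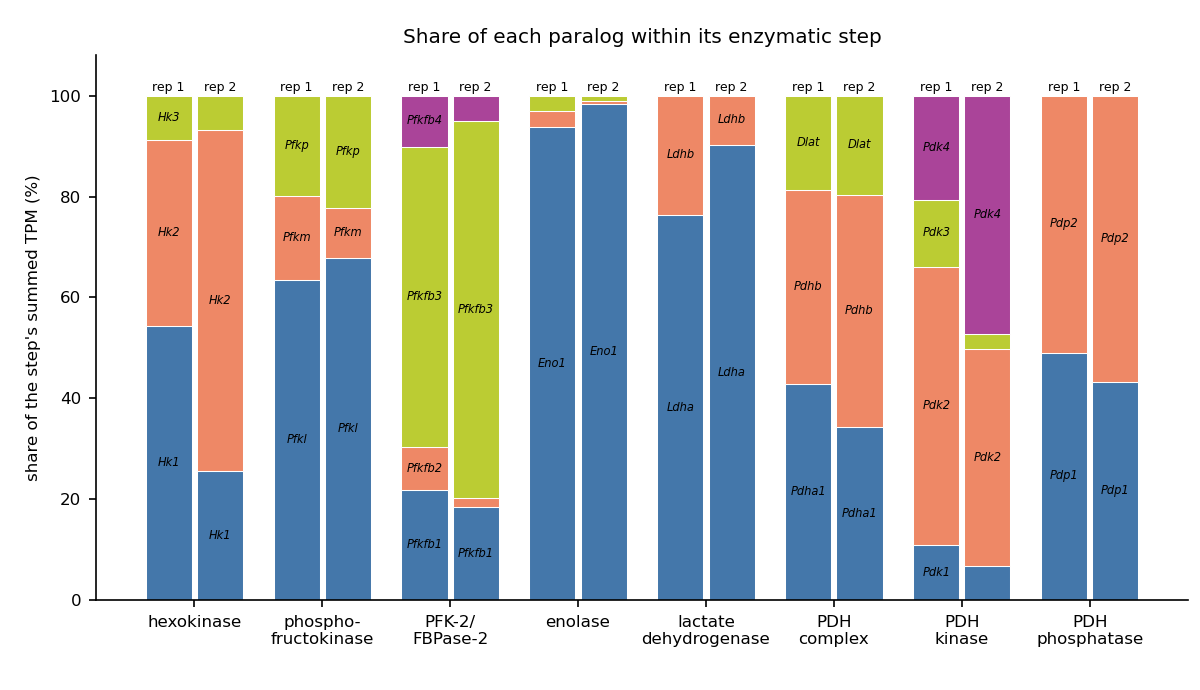
Share of each gene in the summed TPM of its step, in replicate 1 and replicate 2, for the 8 steps with more than 1 gene other than aldolase, phosphoglycerate mutase and pyruvate kinase. The genes of the pyruvate dehydrogenase complex are different subunits, not paralogs, so their shares are no choice between isozymes. Hk2, Ldha, Pfkfb3 and Pdk4 take larger shares in replicate 2, and Hk1, Ldhb, Pfkfb2 and Pdk3 smaller ones.

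The 3 core genes of the pyruvate dehydrogenase complex summed to 328 TPM in replicate 1 and 372 in replicate 2. Pdha1, the E1 alpha subunit that the kinases phosphorylate, had 141 and 128 TPM. Pdhb, the E1 beta subunit, had 126 and 171 TPM, and Dlat, the E2 acetyltransferase, 61.7 and 73.4 TPM. Their TMM ratios were 1.44 (1.40 to 1.47), 2.12 (2.05 to 2.19) and 1.57 (1.503 to 1.63), so that only Pdhb among these 3 passed the bound, and the TPM ratio of Pdha1 was 0.908. A retained-intron transcript, Dlat-206, held 53.5% and 50.6% of Dlat TPM. The full-length coding transcript of Dlat had 27.9 and 26.3 TPM, with a TMM ratio of 1.47 (1.41 to 1.54). With total-count scaling the ratio of Pdhb was 1.49. Pdhx and Dld, the remaining parts of the complex, had 31.2 and 35.9 TPM, and 32.7 and 40.7 TPM. Pdha2, the testis copy of Pdha1, had 0 counts in both libraries. Summed TPM of lactate dehydrogenase stood 3.26-fold above that of the 3 core genes in replicate 1 and 3.28-fold in replicate 2. For full-length coding transcripts alone these values were 3.96 and 4.00.

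Among the kinases that inactivate the complex, Pdk4 had the largest ratio of all 34 genes. It had 1235 counts (25.9 TPM) in replicate 1 and 6573 (93.1 TPM) in replicate 2, a ratio of 7.09 (6.67 to 7.54). With total-count scaling it was 4.96. Pdk4 is known to rise in fasting and with fatty acid use, under PPAR control. Pdk2, the most widespread kinase, had 69.2 and 84.9 TPM and a ratio of 1.91 (1.84 to 1.98). Pdk1, a known target of hypoxia signalling, had 13.7 and 13.3 TPM and a TMM ratio of 1.49 (1.41 to 1.57), with a TPM ratio of 0.972. Pdk3 went the other way, with 1200 counts (16.8 TPM) and 503 (6.01 TPM), a ratio of 0.558 (0.502 to 0.620). Total-count and spike-in scaling carried Pdk3 past the bound, at 0.391 and 0.407. Counts of Pdk3 to Pdk4 were 12.7-fold lower in replicate 2 (11.3 to 14.3). The share of Pdk4 among the 4 kinases was 20.6% in replicate 1 and 47.2% in replicate 2. Over full-length coding transcripts these shares were 8.71% and 30.5%, with Pdk2 leading in both libraries at 63.2% and 57.3%.

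The phosphatases that reactivate the complex were low. Pdp1, the calcium-stimulated form, had 11.7 and 6.21 TPM and a ratio of 0.781 (0.701 to 0.870). Pdp2, known to respond to insulin in fat, had 12.2 and 8.17 TPM, with a TMM ratio of 1.05 (0.969 to 1.13) that became 0.733 with total-count scaling. Kinase TPM over phosphatase TPM was 5.25 in replicate 1 and 13.7 in replicate 2, or 6.48 and 13.9 over full-length coding transcripts. The latter 2 values are too high as ratios of coding transcripts. Their phosphatase sum leaves out Pdp1-201, a protein-coding transcript of 7.96 and 4.34 TPM that fell under the length cut.

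Gene TPM counted transcripts other than full-length coding ones. For 11 of the 34 genes the gene TPM was over 1.5 times that of full-length coding transcripts. Full length here means at least 0.5 of the length of the gene's longest protein-coding transcript, whole transcripts being measured. The cut can thus drop a main coding transcript. Pdp1 is among the 11 because Pdp1-201 (1881 bases, 67.8% and 69.9% of Pdp1 TPM) fell under it, beside Pdp1-203 of 4201 bases. Short transcripts add much TPM with few reads. Pdk4-202, a retained-intron transcript of 412 bases, held 65.2% and 54.2% of Pdk4 TPM but 10.2% and 6.54% of its counts. Gapdh-208, a non-coding transcript of 483 bases, held 37.0% and 28.3% of Gapdh TPM. Over full-length coding transcripts Gapdh had 2058 and 2229 TPM and Aldoa 1789 and 3332, so the turn in order seen in gene TPM remained. Pgk1-203, annotated for nonsense-mediated decay, held 50.2% and 60.4% of Pgk1 TPM, level with the coding Pgk1-201 (49.8%) in replicate 1. The leading transcript was the same in both libraries for 30 of 34 genes, was protein coding for 27, and held at least 90% in both libraries for 12. In 11 genes the share of a transcript differed by at least 10 percentage points. Among these, Eno1-205 (773 bases) held 23.4% in replicate 1 and 2.47% in replicate 2, and Tpi1-204 (446 bases, a retained intron) 23.1% and 2.91%.

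**Figure D4:**
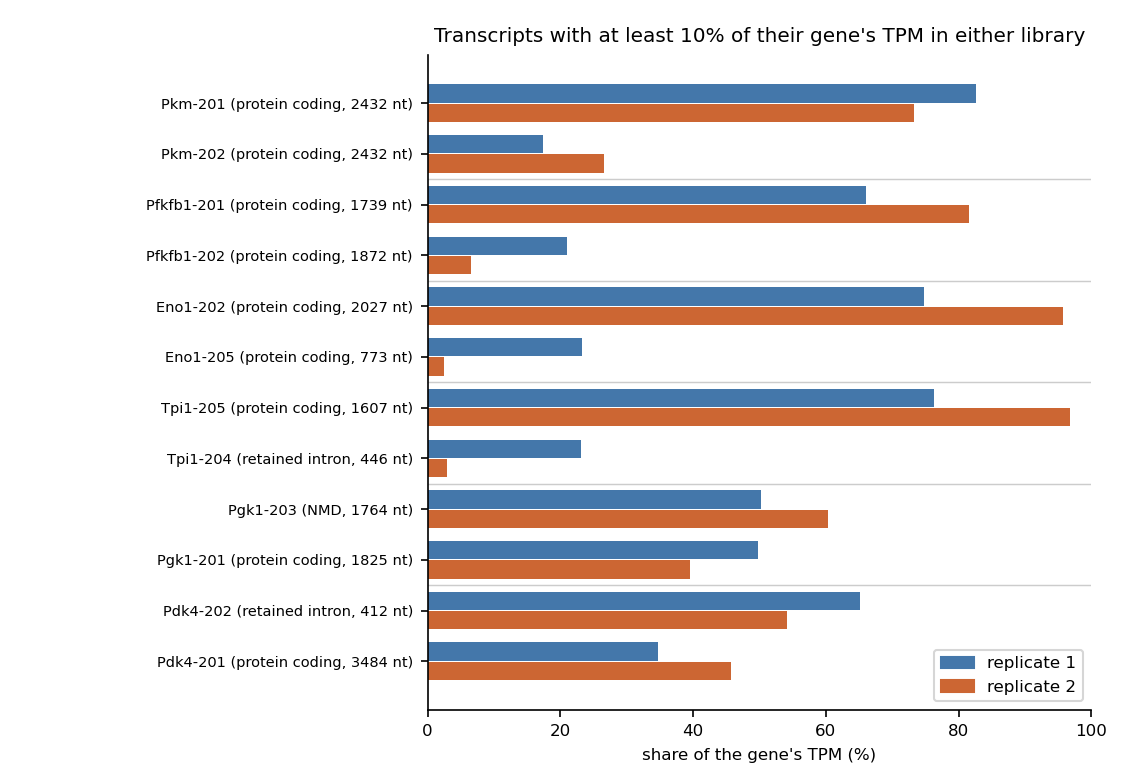
Share of the gene's TPM (%) for transcripts of 6 genes with at least 10% in either library, in replicate 1 (upper bar) and replicate 2 (lower bar), with annotated class and length. Pkm-201, Eno1-205 and Tpi1-204 hold larger shares in replicate 1, and Pfkfb1-201 and Eno1-202 larger shares in replicate 2.

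Several members share reads with near-identical copies, between which the deposited counts divide them. A sequence search for genes with at least 95% identity over at least 50% of the member's main coding transcript found copies in the table for 5 members, and 29 had none. For 4 of the 5 the copies held over 1% of the summed count in a library. Eno1 was the most affected. Eno1b, a copy on another chromosome with 99.5% identity, had 9985 counts in replicate 1 and 466 in replicate 2, the opposite direction to Eno1. Copies held 25.4% of the summed enolase 1 count in replicate 1 and 2.14% in replicate 2. Their sum with Eno1 gave a TMM ratio of 2.22 (2.19 to 2.25), still over 2-fold, against 2.91 without them, and 1.55 with total-count scaling, where Eno1 alone had 2.04. The call of Eno1 under total-count scaling therefore depended on how the reads were divided. Gapdh had 65 copies in the table, with 15.9% and 11.8% of the summed count and a summed ratio of 1.54 (1.53 to 1.55). For Pgk1, copies held 19.4% and 19.7%, almost all in Pgk1-rs7, with a summed ratio of 1.63. For Pdhb they held 0.466% and 3.20%. Pgam1-ps2 was identical to Pgam1 over 43.1% of its transcript, less than the coverage required, and had 3539 and 5126 counts.

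Upstream of the members, short motifs of known regulators were counted in RefSeq's 300-base windows (250 before and 50 after a start) nearest to each main coding transcript, found for 33 of 34 genes, all but Pdp1. ACGTG, the core that hypoxia-inducible factors bind, was present on either strand in 15 of 33 windows (45.5%), against 19.6% of all 32851 windows. CACGTG, the E-box, which contains ACGTG, was in 5 (15.2%, against 7.15%), and GGGCGG, the core of the GC box, in 18 (54.5%, against 35.7%). The windows were not matched for base composition. The windows of Hk2, Aldoa, Pfkfb3, Ldha and Pdhb, all called higher in replicate 2, held ACGTG. So did those of Hk1, Hk3, Pfkm, Pfkfb2, Gapdh, Pgk1, Pgam1, Pdk2, Pdk3 and Pdp2, which were not called under TMM. The windows of Tpi1, Eno1, Pdk4 and Pfkfb1, also called higher in replicate 2, did not hold ACGTG. The start of a window lay up to 244 bases from that of the main transcript, for Eno1. This distance was 208 for Pkm, 151 for Hk3, 138 for Tpi1 and 121 for Hk1. Such windows may miss part of the bases before the transcript's own start. A match is a description of letters, not of binding. The E-box was in the windows of Pfkfb3 and Ldha, both called higher in replicate 2. It was also in those of Pfkfb2, Pdk2 and Pdp2, which were not called under TMM (ratios of 0.828, 1.91 and 1.05). The bases before the starts of Pfkfb3 (chr2:11502091-11502340, minus strand) and Ldha (chr7:46845554-46845803, plus strand), from the same RefSeq table, are shown as examples of called genes that hold the E-box. Capitals mark ACGTG on either strand.
Pfkfb3 upstream: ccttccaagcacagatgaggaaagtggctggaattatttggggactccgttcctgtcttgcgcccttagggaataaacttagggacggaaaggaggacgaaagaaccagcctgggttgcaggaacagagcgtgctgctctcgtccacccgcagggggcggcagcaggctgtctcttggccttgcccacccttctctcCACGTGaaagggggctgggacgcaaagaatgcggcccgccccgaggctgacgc
Ldha upstream: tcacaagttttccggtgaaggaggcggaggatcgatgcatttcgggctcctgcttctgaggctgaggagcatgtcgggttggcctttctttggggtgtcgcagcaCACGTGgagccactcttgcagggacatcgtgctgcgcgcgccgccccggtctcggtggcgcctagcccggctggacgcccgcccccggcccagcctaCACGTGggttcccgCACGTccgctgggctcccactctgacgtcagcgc
CACGTG reads the same on both strands, so each E-box counts as an ACGTG on each strand.

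Beyond the members, 41 further genes of the pathway were read, of which 29 were tested. Of these, 6 were over 2-fold higher in replicate 2 (background 10.6%) and 2 in replicate 1 (background 12.5%), and their median log2 ratio was 0.72 over 34 genes. Among the alternative isozymes and remaining complex parts, 2 of 7 tested were higher in replicate 2, Pgm1 (97.5 and 136 TPM), which links glycogen to glycolysis, and Ldhd (29.9 and 45.03 TPM), the D-lactate dehydrogenase.

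Among 7 carriers, Mpc1, a subunit of the mitochondrial pyruvate carrier, had 514 and 769 TPM and a ratio of 2.33 (2.28 to 2.39). Its partner Mpc2 had 158 TPM in each and a ratio of 1.55 (1.497 to 1.61). Bsg, the chaperone of lactate carriers, had 517 and 556 TPM, and Slc16a1, the general lactate carrier MCT1, 23.3 and 18.6 TPM. Slc16a3, the lactate exporter MCT4 of glycolytic cells, had 634 and 138 counts (11.0 and 1.61 TPM), a ratio of 0.290 (0.239 to 0.349). Slc16a3 was thus lower in replicate 2, where Ldha was higher. The ratio of Slc16a1 was 1.25 (1.19 to 1.31) with TMM and 0.873 with total-count scaling. Lactate export itself was not tested.

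Among 5 tested genes of reverse and branch steps, Pck1, which feeds glyceroneogenesis in fat, passed the bound. It had 7911 and 30114 counts (89.99 and 298 TPM), a ratio of 5.07 (4.945 to 5.197). Pcx, pyruvate carboxylase, was the highest of them at 464 and 466 TPM, with a ratio of 1.57 (1.55 to 1.59). Pck2, the mitochondrial form, had 33.1 and 17.5 TPM, and G6pc3, the widespread glucose 6-phosphatase, 91.4 and 87.4 TPM.

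Among 10 regulators, Txnip, the glucose-induced inhibitor of glucose uptake, had 533 and 1740.4 TPM, a ratio of 3.91 (3.86 to 3.96). Mlxipl, which encodes the glucose sensor ChREBP that induces Txnip, had 81.3 and 137 TPM, a ratio of 2.70 (2.62 to 2.79). Myc, a growth regulator with glycolytic targets, had 4577 and 738 counts (81.5 and 11.6 TPM), a ratio of 0.215 (0.198 to 0.232). Hif1a, the hypoxia-inducible factor subunit, had 37.3 and 18.1 TPM, a ratio of 0.771 (0.736 to 0.806). Epas1, its relative, had 90.5 and 94.9 TPM, and Mlx, the partner of ChREBP, 48.9 and 44.4 TPM. Of the 8 called genes, Pck1, Txnip, Slc16a3 and Myc kept the call under total-count and spike-in scaling.

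**Figure D5:**
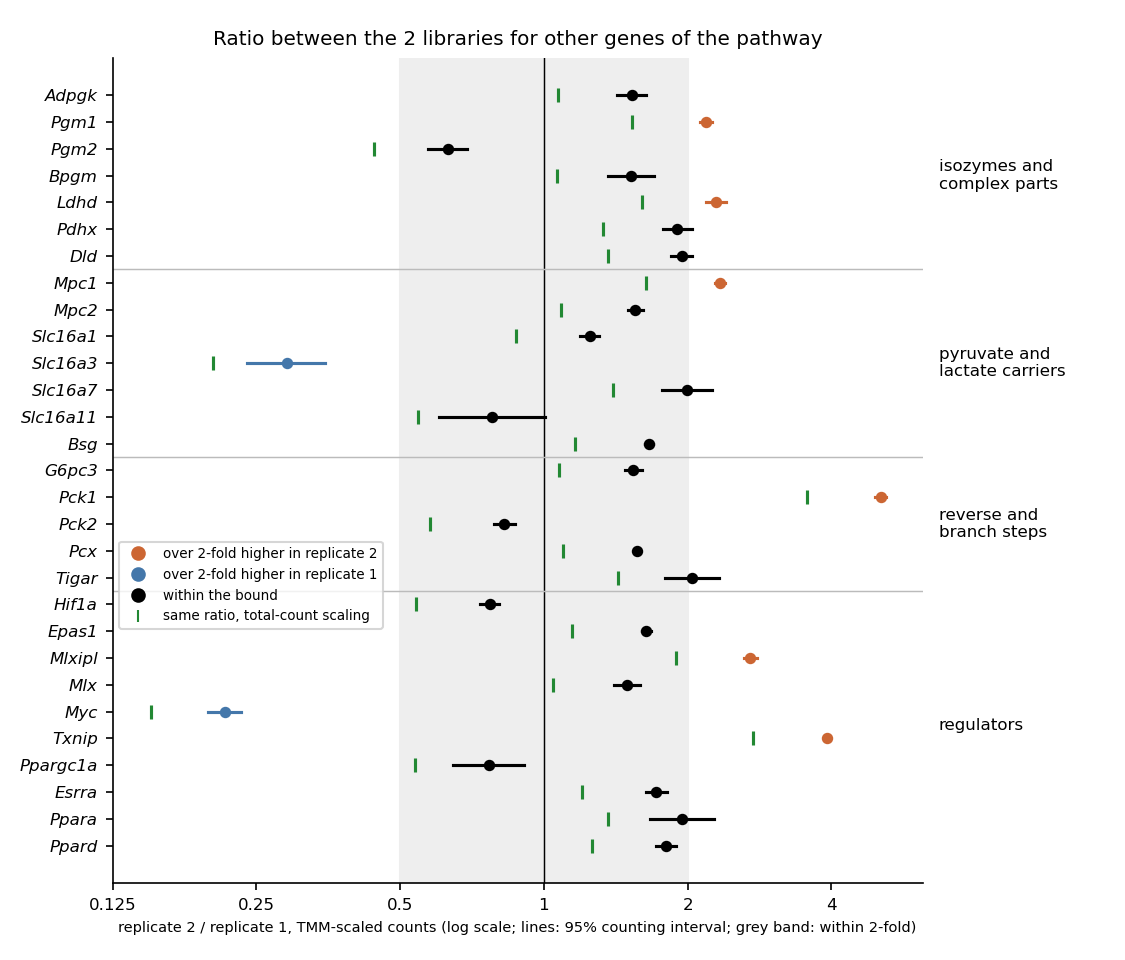
Ratio of replicate 2 to replicate 1 (log scale, with 95% counting intervals) for the 29 tested genes outside the 34, by group, with the 2-fold band in grey and total-count scaling as green ticks. Pck1 (5.07) and Txnip (3.91) lie to the right, and Myc (0.215) and Slc16a3 (0.290) to the left.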

How the data were processed

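Polyadenylated RNA was read in 2 libraries. Per the file headers, the authors deposited for each library expected counts (estimated counts, with reads that match several features divided among them), TPM, posterior mean TPM and FPKM per gene and transcript, and the percent of its gene's TPM that each transcript holds. The notes deposited beside the tables name mm10 and GENCODE M4. A program name was not given in the sources used here. Gene symbols came from the reference tables, and coordinates and transcript names from GENCODE M21 of the same build.

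Expected counts were rounded and scaled with edgeR 4.0.16 (TMM), with DESeq2 1.42.0 size factors as an alternative, in R 4.3.3. With 1 library on each side no test was made. For a ratio, the 95% interval is the exact Clopper-Pearson one for how 2 counts divide. Those of a change of ratio are exact conditional intervals, or normal on the log scale where every count was above 500. The procedure was tested on simulated data. Copies were sought with blastn 2.17.0. All members are named. Of the further genes, those over 2-fold apart, the 4 highest of each group, and Hif1a, Mlxipl, Myc and Txnip are named, and others named here were chosen after their values were seen. Members and lists were chosen with earlier results of these data known. Contig and splice junction lists on mm9 were not used here. Some further genes are not reported here.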

Additional observations from a re-analysis of the deposited data

How the results depend on the processing

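With 2 libraries of 1 group the precision rests on counting alone, and a difference between the libraries cannot be told apart from any other difference between the 2 preparations. The count of members with a TPM of at least 1 in both libraries was 31, and 30 to 33 under other thresholds, posterior mean TPM, rescaled TPM and full-length transcripts, and 31 to 33 when either replicate was left out. The 9 members higher in replicate 2 became 4 with total-count and 5 with spike-in scaling, 16 with a bound of 1.5-fold and 2 with 4-fold. The 1 member higher in replicate 1 became 4 with total-count and 4 with spike-in scaling, 2 with a scaled-count floor of 10, 3 with a bound of 1.5-fold, and 0 with 4-fold or with full-length coding transcripts. The 10 members apart became 19 with 1.5-fold and 2 with 4-fold. Median-ratio size factors left all 3 counts as they were, and so did a scaled-count floor of 500 and the addition of copies. The median log2 ratio of the members became 0.0593 with total-count and 0.117 with spike-in scaling, by the construction of those scalings. That of all genes became -0.516 and -0.458. The share of calls that lay in replicate 2 was 9 of 10 with TMM and 4 of 8 with total-count scaling. Of 24 members with a TMM ratio above 1, 19 stayed above 1 under all 4 scalings, and all 10 below 1 stayed below. Total-count scaling reversed Hk3 (0.739), Gpi1 (0.903), Pgam2 (0.999), Pkm (0.768) and Pdp2 (0.733). Spike-in scaling reversed Hk3 (0.770), Gpi1 (0.9402), Pkm (0.800) and Pdp2 (0.763). Ratios of TPM with a pseudocount of 0.1 reversed Hk3 (0.640), Gpi1 (0.8202), Gapdh (0.944), Pgam1 (0.924), Pgam2 (0.929), Pkm (0.703), Pdha1 (0.908), Pdk1 (0.973) and Pdp2 (0.673). With a pseudocount of 1 they gave Hk3 (0.690), Gpi1 (0.821), Gapdh (0.944), Pgam1 (0.924), Pgam2 (0.969), Pkm (0.703), Pdha1 (0.909), Pdk1 (0.974) and Pdp2 (0.695). Full-length coding transcripts reversed Hk3 (0.770) and Pfkfb2 (1.20). The reversals under total-count and spike-in scaling follow from the constant shift of each scaling. The causes of the reversals with TPM and with full-length coding transcripts were not tested. The alternatives of full-length coding transcripts and of added copies were chosen after seeing the data. No paired analysis was possible because the libraries form 1 group.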

Other observations

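Dio2, the deiodinase of heat-producing fat, had 14566 counts in replicate 1 and 192 in replicate 2, opposite to Ucp1 (6991 and 20832 counts), Cidea (1938 and 6415) and Cox8b (689 and 2103) of the same list. Ppargc1a, a coactivator on that list, had 382 and 220 counts, a ratio of 0.767 that is no call, and Elovl3 had 74 and 166 counts. Fbp2, the muscle fructose bisphosphatase, had 27 and 87 counts, and Fbp1, the liver form, 27 and 43, both too few for a call. Lep, the leptin gene, had the largest ratio among the adipocyte markers, 17.2 (16.8 to 17.5), against 3.46 for Plin1, so that the adipocyte list itself spread widely. The list's median log2 ratio was 2.43. The ratios of Pdk4 (7.09) and Pfkfb3 (5.25) lay within the range of these adipocyte markers, and those of the other called members in replicate 2 lay below it. Pfkfb1 (3.40, 3.22 to 3.61) had an interval that reached into that range.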
